A study of Mus musculus with 6 samples.

Results

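Retinoic acid synthesis, breakdown and binding was represented by 9 mouse genes, chosen by name: the synthesis enzymes Aldh1a1, Aldh1a2 and Aldh1a3, the retinaldehyde reductase Dhrs3, the breakdown enzymes Cyp26a1, Cyp26b1 and Cyp26c1, and the binding proteins Crabp1 and Crabp2. All 9 symbols were matched to an Ensembl gene, out of 39179 genes in the count files. The samples were the sensory epithelia of the cochlea, the hearing organ, and of the vestibule, the balance organ, from wild-type C57Bl/6J mice on the day of birth (P0), males and females pooled. Sensory tissue of 10 mice (20 inner ears) was used, and 3 libraries were sequenced for each tissue, each from 450 ng of total RNA. The sources used here do not say whether the 3 libraries of a tissue came from separate pools, and the methods give 1 RNA yield per tissue, so the p-values measure only the spread between these libraries, which may be technical. No treatment or genetic change distinguishes the groups, and each library is a mixture of all the cell types left in the dissected tissue, so that fewer cells of a type and less RNA per cell cannot be told apart.

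Retinoic acid is made from vitamin A. Retinol is first oxidized to retinaldehyde, mainly by Rdh10, a step that Dhrs3 reverses, and the Aldh1a enzymes then oxidize retinaldehyde to retinoic acid. The Cyp26 enzymes are cytochrome P450s that inactivate retinoic acid, and the Crabp proteins bind it inside cells. In the nucleus it acts through receptors of the Rar family paired with those of the Rxr family, which bind repeated copies of a hexamer. In the inner ear the pathway is known for patterning the otic vesicle, and in the vestibular maculae for the zones set by Cyp26b1 and Aldh1a3.

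The synthesis enzymes and the reductase were higher in the vestibule, and the breakdown enzyme and binding proteins that could be tested were higher in the cochlea. Aldh1a1, Aldh1a2, Aldh1a3 and Dhrs3 were up-regulated in the vestibule, and Cyp26b1, Crabp1 and Crabp2 in the cochlea. Of the 9 genes, 7 reached at least 1 CPM (on the counts-per-million scale, relative to all counts on genes) in 3 or more libraries and were tested, and 2, Cyp26a1 and Cyp26c1, did not. The 7 tested genes had at least 1 CPM in all 6 libraries. Thus 4 genes were called in the vestibule and 3 in the cochlea, by the quasi-likelihood test of edgeR with p-values adjusted (Benjamini-Hochberg) over all 14723 genes tested, at a false discovery rate (FDR) of 0.05. Over all genes tested 27.4% were called, 15.8% higher in the vestibule and 11.6% higher in the cochlea. The log2 fold changes of the 7 genes, given throughout as vestibule minus cochlea, ran from -6.46 for Crabp1 to 4.40 for Aldh1a1. Their median of 0.88 is the value of Aldh1a2 and no shift of the whole set, and the median of all genes tested was 0.00. Without the scaling between libraries (TMM) the latter was 0.13, and 68.8% rather than 57.6% of all calls were higher in the vestibule, while the 7 genes were called in the same directions. The libraries of the 2 tissues did not overlap in CPM for any of the 7, and for 41.8% of all genes tested they did not overlap either.

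**Figure D1:**
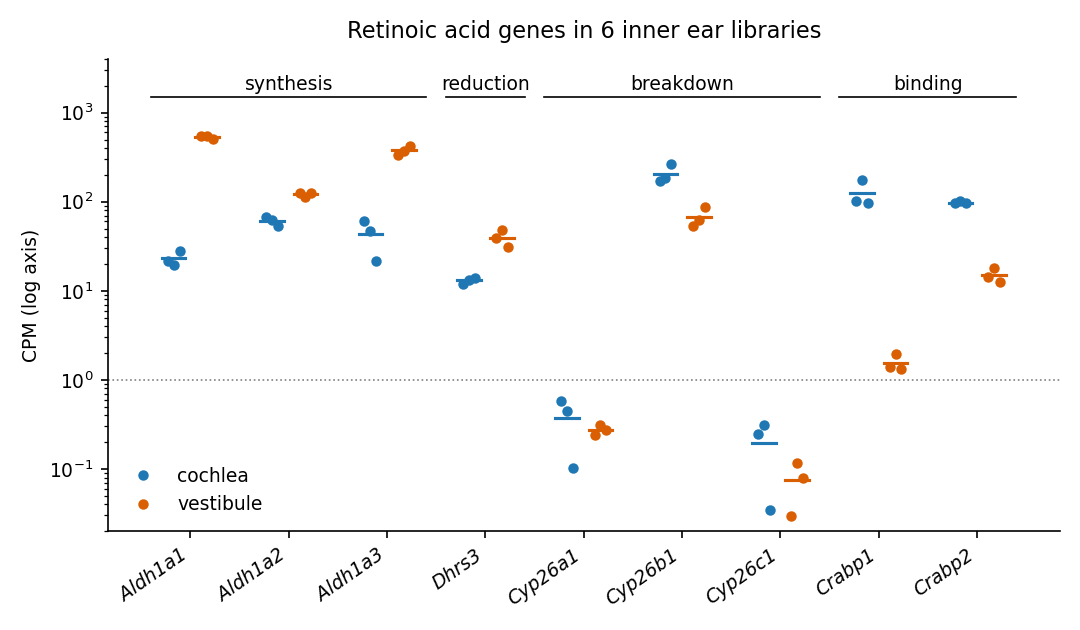
CPM of the 9 genes (log axis) in the 3 cochlear (blue) and 3 vestibular (orange) libraries, grouped by role; each point is a library, each bar the mean of a tissue, and the dotted line marks 1 CPM. Cyp26a1 and Cyp26c1 lie below the line in all libraries, and the points of the 2 tissues do not overlap for the other 7 genes.

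The promoters of 7 of the 9 genes were found in a table of RefSeq sequences (GRCm38.p6), each holding 250 bases before and 50 after a transcript start. Aldh1a3 and Crabp2 were not matched. The promoters of 4 genes are shown: Aldh1a1 and Crabp1 because they changed most in each direction, Cyp26b1 as the breakdown enzyme that is expressed, and Cyp26a1 as the member with a paired receptor site. They are written 5′ to 3′ on the strand of the gene, with each receptor hexamer in capitals. The hexamers searched, on both strands, were the sequence AGGTCA and its variants AGTTCA (in which the third letter differs), GGGTCA (in which the first does) and GGTTCA (in which both do).
Aldh1a1 (chr19:20601718-20602017, plus strand): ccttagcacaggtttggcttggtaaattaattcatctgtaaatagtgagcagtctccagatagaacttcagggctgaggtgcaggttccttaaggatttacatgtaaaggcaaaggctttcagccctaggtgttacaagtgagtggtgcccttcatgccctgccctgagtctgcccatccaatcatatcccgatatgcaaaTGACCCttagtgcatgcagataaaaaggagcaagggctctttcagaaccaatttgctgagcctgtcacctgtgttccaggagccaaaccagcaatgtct
Crabp1 (chr9:54764498-54764797, plus strand): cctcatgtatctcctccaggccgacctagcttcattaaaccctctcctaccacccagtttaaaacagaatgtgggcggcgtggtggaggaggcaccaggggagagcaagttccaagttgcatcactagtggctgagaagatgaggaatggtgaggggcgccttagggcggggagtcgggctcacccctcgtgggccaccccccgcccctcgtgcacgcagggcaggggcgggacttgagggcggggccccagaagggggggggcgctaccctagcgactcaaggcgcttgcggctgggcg
Cyp26b1 (chr6:84593761-84594060, minus strand): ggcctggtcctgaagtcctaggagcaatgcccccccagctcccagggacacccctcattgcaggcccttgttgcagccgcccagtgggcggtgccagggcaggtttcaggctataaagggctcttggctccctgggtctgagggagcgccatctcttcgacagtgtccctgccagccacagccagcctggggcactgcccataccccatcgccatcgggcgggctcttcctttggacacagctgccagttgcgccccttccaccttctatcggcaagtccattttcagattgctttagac
Cyp26a1 (chr19:37697558-37697857, plus strand): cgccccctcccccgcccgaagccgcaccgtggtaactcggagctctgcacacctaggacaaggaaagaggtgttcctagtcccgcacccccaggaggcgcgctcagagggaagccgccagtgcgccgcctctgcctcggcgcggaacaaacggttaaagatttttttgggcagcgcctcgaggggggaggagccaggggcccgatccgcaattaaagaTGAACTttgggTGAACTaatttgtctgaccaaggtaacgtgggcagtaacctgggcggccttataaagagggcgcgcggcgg
In the Cyp26a1 promoter 2 hexamers point the same way and are separated by 5 bases, the arrangement called DR5, as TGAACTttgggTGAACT on chromosome 19 from 37697776 to 37697792, starting 32 bases before the transcript start used in the table. A DR5 of these hexamers is in 32 of all 32851 promoters in the table (0.0974%), and single hexamers are in 43.7% of them. None of the 10 promoters listed for the 7 genes held a direct repeat with a spacing of 1 or 2 bases (DR1 and DR2, in 0.222% and 0.268% of all promoters). The Aldh1a1 promoter shown held 1 hexamer, and those of Crabp1 and Cyp26b1 held none. A match is a description of the letters in this window and not of binding. The promoters also differed in base composition. Aldh1a2 was 78.0% G and C with 50 CpG dinucleotides, Crabp1 65.0% with 17, and Aldh1a1 47.0% with 1. The medians over all promoters were 52.7% and 7, and the central 80% held between 1 and 31 CpG dinucleotides. A separate start of Aldh1a1 in the table lies at chr19:20492333-20492632, and counts per gene do not tell which start was used.

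Markers of several cell types differed in level between the tissues. Counts on genes were between 24464483 and 33664793 per library. The summed level of the 6 hair cell markers was 522 to 715 CPM in the cochlea and 901 to 1184 in the vestibule, with 3 called higher in the vestibule (Pou4f3, Gfi1 and Otof) and Atoh1, Myo6 and Myo7a not called. Myo6, the most abundant of them in the cochlea, had 361 to 458 CPM there and 326 to 360 in the vestibule. The 6 supporting cell markers summed to 2220 to 2529 CPM in the cochlea and 528 to 618 in the vestibule, and 5 were called higher in the cochlea. Tectb (1223 to 1594 CPM) and Gjb2 (682 to 759) made up most of the cochlear sum. Their log2 fold changes were -2.81 and -2.14, against -0.60 for Sox2, -0.89 for Prox1 and -3.43 for Hes5, and Lfng (-0.02) was not called. Mesenchyme markers summed to 5278 to 5989 CPM in the cochlea and 8125 to 9361 in the vestibule, where 4 of 10 were higher, while 2 were higher in the cochlea. Markers of endothelium (55.1 to 84.6 against 322 to 457 CPM), macrophages (57.3 to 73.9 against 225 to 231), melanocytes (30.1 to 59.5 against 238 to 281) and smooth muscle and pericytes (79.9 to 104 against 177 to 214) were higher in the vestibule, with 3, 4, 4 and 4 of 4 genes called. The markers of Schwann cells (436 to 547 against 897 to 1164 CPM) and of dark cells and stria (615 to 775 against 981 to 1118) had 2 and 3 of 4 called higher there. Bone markers summed to at most 11.02 CPM in the cochlea against 30.2 to 42.1 CPM, with 3 of 4 called higher in the vestibule and Bglap under the filter. Markers of cartilage (10549 to 17941 against 13026 to 16441 CPM), neurons (131 to 385 against 110 to 291) and red blood cells (253 to 625 against 407 to 541) overlapped between the tissues as sums. Single genes of these lists differed, with Acan called higher in the vestibule (log2 fold change 3.52), and Matn1 (-4.60), Sox9 (-1.04) and the neuron marker Tubb3 (-2.54) higher in the cochlea. Col2a1 made up most of the cartilage sum and was not called. Skeletal muscle markers were at 232 CPM in cochlea replicate 3 and at 3.56 to 19.4 in the other libraries. Of the genes called in these lists, Hes5 (supporting cells) was under 1 CPM in every vestibular library, and Mlana (melanocytes) and Myh11 (smooth muscle and pericytes) were under 1 CPM in every cochlear one. These 3 passed the filter through the other tissue alone. Their direction was set by the filter, and they add nothing to the counts of their lists. Ibsp (bone) and Aif1 (macrophages) reached 1 CPM in only 1 and 2 cochlear libraries and needed vestibular libraries to pass. For these 2 the filter favored the direction without fixing it, and they add little to the counts. The part of these cell types in the differences of the retinoic acid genes was not tested. Without cochlea replicate 3, the 4 genes higher in the vestibule and the 3 higher in the cochlea were called again, with log2 fold changes from -6.63 for Crabp1 to 4.55 for Aldh1a1.

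Aldh1a1, a retinaldehyde dehydrogenase, changed most of the genes higher in the vestibule. It is on chromosome 19 from 20492715 to 20643465 (ENSMUSG00000053279; coordinates here and below are those of GRCm38 in GENCODE vM21). Its counts were 533, 563 and 827 in the cochlea against 18261, 14112 and 12806 in the vestibule. As CPM these were 21.8, 19.5 and 28.3 in the cochlea against 542, 550 and 503 in the vestibule. Every vestibular library was thus more than an order of magnitude above every cochlear one. The mean was 532 CPM ± 25.3 (SD, n = 3) in the vestibule and 23.2 ± 4.55 in the cochlea, a ratio of 22.9. Its log2 fold change was 4.40 (standard error 0.17, adjusted p = 2.95e-06, edgeR), and its size ranked 112 among the 14723 genes tested.

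Aldh1a3, the isozyme known from the ventral retina and the nasal epithelium, followed. It lies on chromosome 7 from 66390890 to 66427517 (ENSMUSG00000015134). Its CPM were 60.3, 47.5 and 21.5 in the cochlea against 338, 372 and 426 in the vestibule. Cochlea replicate 3 was the lowest library, and the spread in the cochlea was the widest of the 7 tested genes (coefficient of variation 45.9%). On the log2 scale the fold change was 3.02 (standard error 0.35, adjusted p = 0.000336, edgeR), and 2.68 without cochlea replicate 3.

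Aldh1a2, the main retinoic acid source of the early embryo and a gene of mesenchyme and meninges, differed least. It is on chromosome 9 from 71215789 to 71296243 (ENSMUSG00000013584). It had 67.2, 61.9 and 53.1 CPM in the cochlea against 125, 113 and 125 in the vestibule. The libraries did not overlap, and the vestibular mean was 1.99 times the cochlear one. The log2 fold change was 0.88 (95% interval 0.56 to 1.19, adjusted p = 0.00179, edgeR). The intervals of Aldh1a1 (4.02 to 4.78) and Aldh1a3 (2.22 to 3.82) lie above that of Aldh1a2, though the differences between genes were not tested.

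The Aldh1a enzymes also differed between the tissues in which of them led. Levels of different genes were compared per length, as RPKM (CPM divided by the gene length in kilobases) from the matrix the authors deposited. In the cochlea Aldh1a2 made up 56.5% ± 1.26 (SD, n = 3) of the summed Aldh1a RPKM, Aldh1a1 24.3% ± 7.42 and Aldh1a3 19.1% ± 7.07. In the vestibule Aldh1a1 made up 65.6% ± 2.79, Aldh1a3 20.8% ± 2.47 and Aldh1a2 13.6% ± 0.873. Aldh1a2 led in each cochlear library and Aldh1a1 in each vestibular one. The shares depend on the gene length used: the matrix implies 2049 bases for Aldh1a1, and the exons of GENCODE vM21 add up to 4937. With the latter the share of Aldh1a1 was 44.3% in the vestibule and 11.9% in the cochlea, where Aldh1a3 then stood above it, while Aldh1a2 still led in the cochlea and Aldh1a1 in the vestibule. These shares are descriptions and were not tested.

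**Figure D2:**
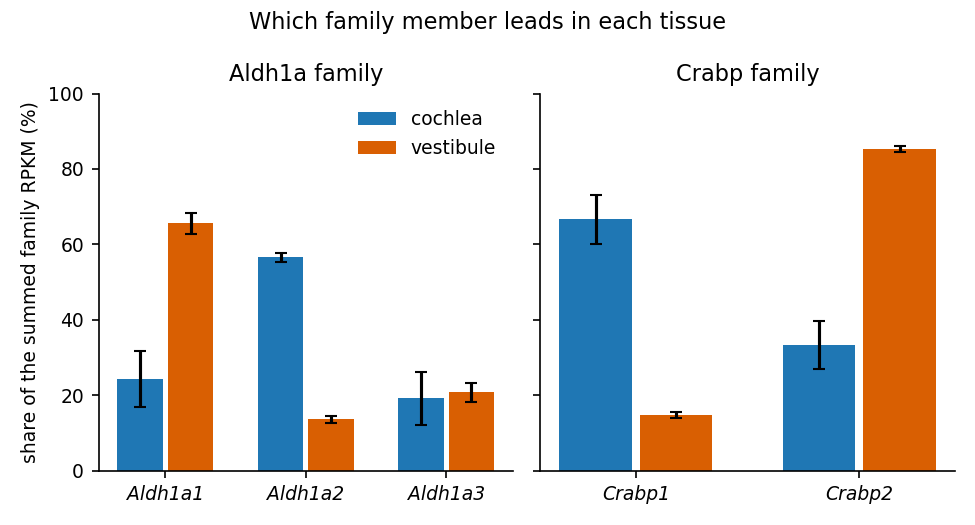
Share of each gene in the summed RPKM of its family (percent), for the Aldh1a enzymes (left) and the Crabp proteins (right); bars are means and error bars SDs of 3 libraries of the cochlea (blue) or the vestibule (orange). Aldh1a2 leads the Aldh1a family in the cochlea at 56.5% and Aldh1a1 in the vestibule at 65.6%, and Crabp1 leads in the cochlea at 66.6% and Crabp2 in the vestibule at 85.3%.

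Aldh1a1 has a close paralog beside it, Aldh1a7, on chromosome 19 from 20692953 to 20727562, so reads could be split between them. Of the 2259 windows of 100 bases (the read length) in the longest transcript of Aldh1a1, 1 is also in an Aldh1a7 transcript, and 15.2% of its windows of 25 bases are. Aldh1a7 had 327, 368 and 295 counts in the cochlea against 486, 464 and 545 in the vestibule, and was not called (log2 fold change 0.46, 95% interval -0.03 to 0.95, adjusted p = 0.149, edgeR). All its counts are a small part of those of Aldh1a1 in the vestibule, and are closer to them in the cochlea. On the opposite strand of Aldh1a1 the annotation has the pseudogene Gm6684, which had at most 1 count, and the transcript C730002L08Rik, and on that of Aldh1a2 the pseudogene Gm48124. The last 2 were not analysed here.

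Dhrs3, which reduces retinaldehyde back to retinol and so limits synthesis, was also higher in the vestibule. It is on chromosome 4 from 144892827 to 144928209 (ENSMUSG00000066026). The cochlear libraries had 12.1, 13.4 and 13.9 CPM and the vestibular ones 39.1, 48.4 and 31.3. The lowest vestibular library was above the highest cochlear one, and the mean was 3.02 times higher. Its log2 fold change was 1.47 (standard error 0.17, adjusted p = 0.000342, edgeR). Rdh10, the retinol dehydrogenase that works in the opposite direction, was higher in the vestibule as well, with 63.4, 63.6 and 59.6 CPM in the cochlea against 148, 140 and 162 in the vestibule (log2 fold change 1.15, standard error 0.13, adjusted p = 0.000321, edgeR).

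Cyp26b1 was the breakdown enzyme of these tissues and was higher in the cochlea. It lies on chromosome 6 from 84571414 to 84593908 (ENSMUSG00000063415). Its CPM were 171, 184 and 268 in the cochlea against 53.1, 62.5 and 87.8 in the vestibule, so the libraries did not overlap. The mean was 207 CPM ± 52.7 (SD, n = 3) in the cochlea against 67.8 ± 17.9 in the vestibule, a ratio of 3.06. The log2 fold change was -1.72 (standard error 0.25, adjusted p = 0.00113, edgeR), and -1.52 without cochlea replicate 3, its highest library. Of all counts on the 3 Cyp26 genes, Cyp26b1 held 99.7% in the cochlea (17288 of 17334) and 99.5% in the vestibule (5631 of 5660).

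Cyp26a1 and Cyp26c1, neighbors on chromosome 19 (37697798 to 37701536 and 37685581 to 37693398), were near the limit of detection. Cyp26a1, an enzyme known to be induced by retinoic acid, had 14, 13 and 3 counts in the cochlea against 8, 8 and 7 in the vestibule. Cyp26c1 had 6, 9 and 1 counts in the cochlea against 1, 3 and 2 in the vestibule. The libraries of the 2 tissues overlapped for each gene, and none exceeded 0.572 CPM. With no filter on low counts, the log2 fold change was -0.58 (standard error 0.59, adjusted p = 0.553, edgeR) for Cyp26a1 and -1.54 (standard error 0.86, adjusted p = 0.256) for Cyp26c1. A difference was therefore not detectable at this depth. The Cyp26a1 promoter is the one with the DR5 element shown above.

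Crabp1, a cellular retinoic acid binding protein, had the largest change of all 7 tested genes. It is on chromosome 9 from 54764748 to 54773110 (ENSMUSG00000032291). Its counts were 2513, 5031 and 2807 in the cochlea against 47, 50 and 34 in the vestibule. The mean was 124 CPM ± 43.6 (SD, n = 3) in the cochlea against 1.56 ± 0.337 in the vestibule, a ratio of 79.8. Cochlea replicate 2 was the highest library at 175 CPM, and the lowest cochlear library, at 96.0 CPM, was still far above the highest vestibular one at 1.95. Its log2 fold change was -6.46 (standard error 0.34, adjusted p = 5.79e-06, edgeR), and its size ranked 23 among all genes tested.

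Crabp2, its paralog, was higher in the cochlea too. It lies on chromosome 3 from 87948666 to 87953376 (ENSMUSG00000004885). The cochlear libraries had 2361, 2918 and 2810 counts, and the vestibular ones 482, 463 and 317. As CPM the means were 98.0 ± 2.88 (SD, n = 3) and 14.9 ± 2.84, and the libraries did not overlap. Their ratio was 6.56, and the log2 fold change was -2.84 (standard error 0.16, adjusted p = 7.14e-06, edgeR). Its 95% interval, -3.20 to -2.48, does not overlap that of Crabp1, -7.22 to -5.69. As shares of the summed RPKM, Crabp1 was 66.6% ± 6.40 (SD, n = 3) and Crabp2 33.4% in the cochlea, and Crabp2 was 85.3% ± 0.702 and Crabp1 14.7% in the vestibule. Neither gene was absent from the vestibular libraries: Crabp1 had 1.33 CPM or more in each. Which cells these few counts came from was not tested.

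**Figure D3:**
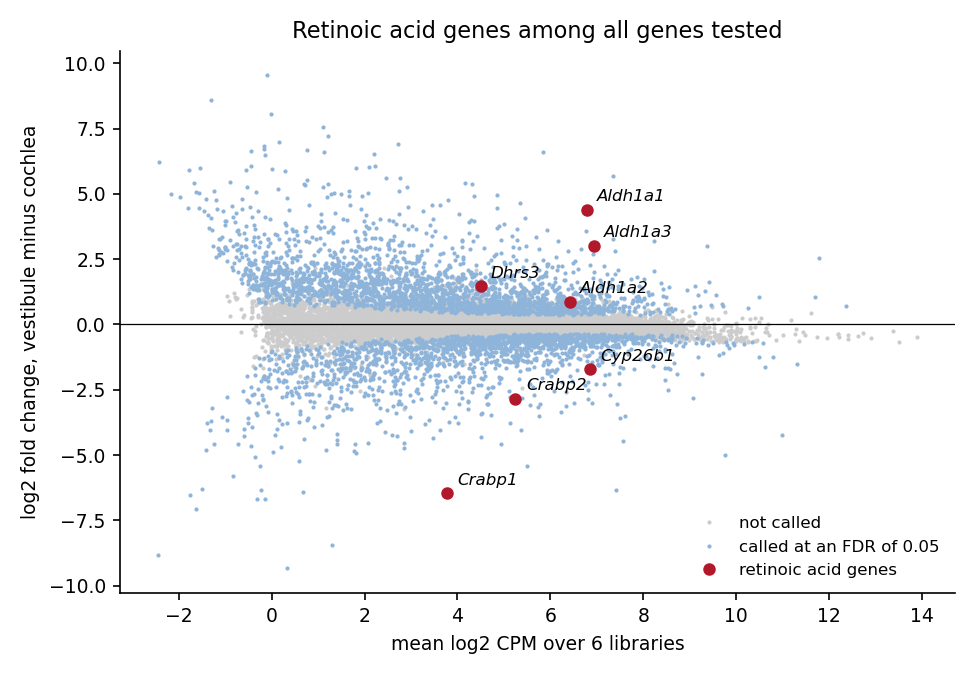
Log2 fold change (vestibule minus cochlea) against the mean log2 CPM of 6 libraries for 14723 genes; grey points were not called, light blue points were called at an FDR of 0.05, and red points are the 7 tested retinoic acid genes. The red points run from Crabp1 at -6.46 to Aldh1a1 at 4.40, and Aldh1a2 at 0.88 is the nearest to 0.

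Ordered by mean RPKM, the cochlea had Crabp1 (155 ± 54.4, SD, n = 3), Crabp2 (74.2 ± 2.17), Cyp26b1 (42.8 ± 10.9), Aldh1a2 (26.9 ± 3.15), Aldh1a1 (11.3 ± 2.22), Aldh1a3 (9.35 ± 4.29) and Dhrs3 (4.49 ± 0.324). The libraries of Aldh1a1 and Aldh1a3 overlapped, as did those of Aldh1a3 and Dhrs3, and the other neighbors in this order did not. In the vestibule the order was Aldh1a1 (259 ± 12.4 RPKM), Aldh1a3 (82.2 ± 9.55), Aldh1a2 (53.6 ± 3.02), Cyp26b1 (14.0 ± 3.70), Dhrs3 (13.6 ± 2.92), Crabp2 (11.3 ± 2.16) and Crabp1 (1.96 ± 0.421). Cyp26b1, Dhrs3 and Crabp2 overlapped with their neighbors among themselves. The gene with the highest RPKM of the 7 in the cochlea was thus the lowest in the vestibule. With exon lengths from the annotation, Aldh1a3 stood above Aldh1a1 in the cochlea (9.33 against 4.70 CPM per kilobase) and Dhrs3 above Cyp26b1 in the vestibule (13.5 against 12.7), and the other places were the same.

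All 11 receptors and coregulators were tested, 2 were up-regulated in the cochlea, 0 in the vestibule, and 9 were not called. Over all genes tested 27.4% were called and 11.6% were higher in the cochlea, so 2 of 11 is near the background. The median log2 fold change of the list was -0.17. Rxrg, a retinoid X receptor with restricted expression, had 22.6, 18.4 and 17.6 CPM in the cochlea against 3.27, 3.19 and 3.22 in the vestibule. All cochlear libraries were thus well above the vestibular ones, at a log2 fold change of -2.71 (adjusted p = 1.49e-05, edgeR). Rarb, a receptor that is itself a classical retinoic acid target, had 51.3, 51.9 and 51.6 CPM in the cochlea against 35.4, 40.0 and 32.5 in the vestibule (log2 fold change -0.64, standard error 0.12, adjusted p = 0.00467). Rara, Rarg, Rxra and Rxrb were not called, and their log2 fold changes were -0.20 (95% interval -0.61 to 0.21), 0.24 (-0.13 to 0.60), -0.36 (-0.68 to -0.04) and 0.12 (-0.15 to 0.39). The coactivators Ncoa1 (-0.57, interval -1.05 to -0.09) and Ncoa2 (-0.17, -0.61 to 0.27) and the corepressor Ncor1 (0.31, -0.37 to 0.99) were not called either. Ncoa3, another coactivator, was at 0.60 (0.10 to 1.10) and was called higher in the vestibule without cochlea replicate 3 and without vestibule replicate 3, among other settings. Ncoa1 was called higher in the cochlea without cochlea replicate 1 and under other settings. The intervals of Rxra, Ncoa1 and Ncoa3 exclude 0 before adjustment over all genes (adjusted p = 0.0942, 0.0776 and 0.077).

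Of the 29 genes for retinol supply, storage and oxidation, 15 were tested. Of these, 7 were up-regulated in the vestibule and 1 in the cochlea, with a median log2 fold change of 0.36, beside 15.8% and 11.6% of all genes tested. Of the 7, Rbp4 and Rdh5 were under 1 CPM in every cochlear library and passed the filter through the vestibule alone, so their direction was set by the filter. Among the 13 genes with at least 1 CPM in all 6 libraries, 5 were higher in the vestibule and 1 in the cochlea, with a median of 0.30. The 7 became 4 without vestibule replicate 1 or 3 and 3 without vestibule replicate 2. Fabp5, the 1 in the cochlea, was not called without cochlea replicate 1 or 2 or without vestibule replicate 1 or 2, and 2, Fabp5 and Rdh11, were called without cochlea replicate 3. The other 14 had at most 0.396 CPM on average, among them Lrat, which makes retinyl esters, and Rpe65, an enzyme of the visual cycle listed at 0 in all libraries. Rbp4, the carrier of retinol in blood plasma, had 5, 7 and 6 counts in the cochlea against 181, 154 and 231 in the vestibule (log2 fold change 4.83, standard error 0.36, adjusted p = 3.21e-05, edgeR). Adh1, an alcohol dehydrogenase that oxidizes retinol, was at 1.59 CPM in the cochlea against 7.13 in the vestibule on average (log2 fold change 2.06, adjusted p = 0.000554), and Rdh5, a retinol dehydrogenase, had means of 0.630 and 1.43 CPM (1.05). The study lists Adh1 among the few genes that were higher in the cochlea in its authors' earlier microarray data but higher in the vestibule here. Fabp5 is a fatty acid binding protein that can also carry retinoic acid, and it had a lowest cochlear library of 25.6 CPM and a highest vestibular one of 22.5 CPM (log2 fold change -0.85, standard error 0.20, adjusted p = 0.0134). Also called were Rlbp1, a retinaldehyde binding protein (0.71, adjusted p = 0.00681), and the retinol dehydrogenase Rdh12 (0.55, adjusted p = 0.0475), both higher in the vestibule. Ttr, the plasma partner of Rbp4, ranged from 41.8 to 113 CPM within the vestibule and was not called (log2 fold change -0.02, interval -0.92 to 0.87).

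**Figure D4:**
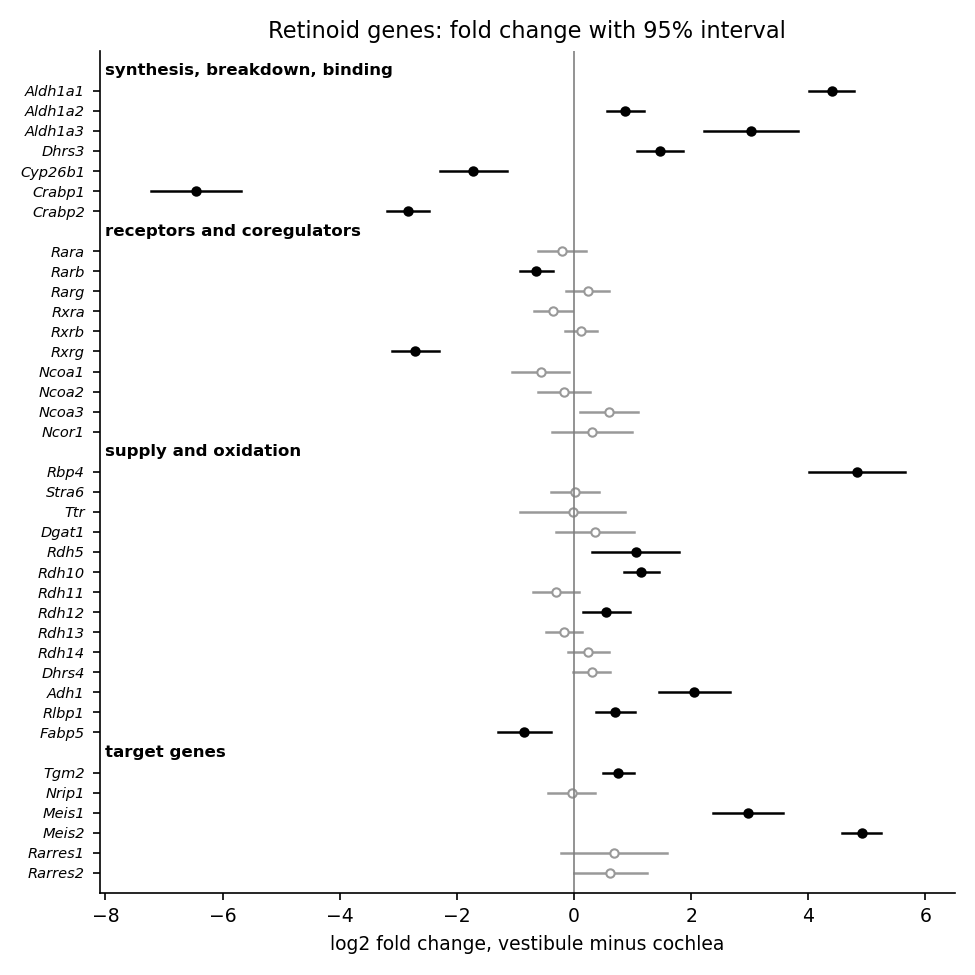
Log2 fold change (vestibule minus cochlea) of retinoid genes tested, by role, with 95% intervals from edgeR's quasi-likelihood fit; filled black points were called at an FDR of 0.05 and open grey points were not. The synthesis genes Aldh1a1 to Aldh1a3 and Dhrs3 lie to the right of 0, Cyp26b1, Crabp1 and Crabp2 to the left, and the intervals of 5 of the 10 receptors and coregulators shown include 0.

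Of 12 genes known as retinoic acid targets in other tissues, 6 were tested, 3 were up-regulated in the vestibule and 0 in the cochlea, beside 15.8% and 11.6% of all genes tested. Meis2, a homeobox factor, had 3.35, 3.26 and 4.17 CPM in the cochlea against 121, 122 and 110 in the vestibule (log2 fold change 4.91, standard error 0.15, adjusted p = 1.69e-06, edgeR). Meis1, its paralog, had 5.31, 4.24 and 8.62 CPM against 57.5, 57.9 and 39.5 (log2 fold change 2.97, adjusted p = 7.19e-05). Tgm2, a transglutaminase, had 23.9, 23.0 and 22.8 CPM against 43.9, 43.3 and 40.6 (0.75, adjusted p = 0.00152). The libraries did not overlap for any of these 3 genes. Nrip1, a nuclear receptor corepressor, was not called (-0.04, interval -0.45 to 0.36), and the classical targets Hoxb1 and Cdx1 were among the 6 genes under the filter. Rarb, also a target, was higher in the cochlea.

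The genes whose pattern over the 6 libraries lay closest to that of Aldh1a1, by Euclidean distance of the log2 CPM centred on the gene's mean, were Tnfaip2 (distance 0.155), the otic homeobox gene Hmx3 (0.432) and Dnajc5b (0.436). Tnfaip2 had 5.35, 4.90 and 7.60 CPM in the cochlea against 137, 149 and 139 in the vestibule. Closest to Crabp1 were Epyc, which encodes the proteoglycan epiphycan, at 0.442, then Tmprss4 at 0.749 and Prss3 at 1.06. Epyc had 1501, 1738 and 1229 CPM in the cochlea against 19.7, 24.0 and 15.9 in the vestibule. Prss3 was at 0 counts in all vestibular libraries and belongs to a family of similar trypsin genes among which reads may be split. Tmprss4 (at most 0.156 CPM in the vestibule) and Dnajc5b (at most 0.376 CPM in the cochlea) were also under the filter in the lower tissue, as was Prss3, and the distances of these 3 depend on the prior count of 0.5 added before the logarithm. The 6 points are 2 tissues of 3 libraries each.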

How the data were processed

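The 3 libraries of each tissue measured messenger RNA and were prepared with a stranded kit and read as pairs of 100 bases. Per the labels, the processing notes of the authors list TopHat2 2.1.0, SAMtools 0.1.18, HTSeq 0.5.4p5, edgeR 3.4.2 and GRCm38, and raw counts per Ensembl gene were deposited. Whether counting used the strand is not given in the sources used here. The authors also deposited log2 RPKM, computed with edgeR, for 14722 genes. For all 13253 of these with at least 30 counts in every library, the values match the counts scaled by plain library size, within 1% in the implied gene length. The summary lines of HTSeq, 18.5% to 20.6% of the listed counts, stayed out of library sizes and tests. Depth on genes was 24464483 to 33664793 counts, so that 1 CPM stands for 24.5 to 33.7 counts.

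Following the filter and FDR of the study, genes with at least 1 CPM in 3 libraries were tested with the quasi-likelihood test of edgeR 4.0.16 (R 4.3.3) after TMM scaling, on tissue alone (Benjamini-Hochberg, FDR 0.05). Standard errors are the log2 fold change divided by the square root of F, and intervals are 95%. The code of the test was checked on simulated counts with few changed genes and the same dispersion for every gene, a simpler setting than these data. The log2 CPM used for distances had a prior count of 0.5. Alternatives were other scalings and filters, DESeq2 1.42.0, voom of limma 3.58.1, edgeR's exact test, a replicate block, another threshold, other gene lengths, and leaving out each library. Exon lengths for the order of levels and the ratios, and the supply genes at 1 CPM in all 6 libraries, were added after seeing the data. The 9 genes and all lists were chosen with earlier results of these data known. The genes named were the 9, Aldh1a7, all Rar and Rxr genes, in each other list the 6 called genes with the largest change and genes over 50 CPM not called, and the 3 genes closest in pattern to the member changed most in each direction. Lrat, Rpe65, Hoxb1, Cdx1, Ncoa3, Rlbp1, Rdh11, Rdh12, Pck1, Bglap and the single marker genes were named after their values were seen. Some genes of the lists, which the counts include, are not reported here by name. The main fit did not use replicate numbers as pairs, and whether they pair the libraries is not known. Figures were drawn with matplotlib 3.10.9 in Python 3.11.15.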

Additional observations from a re-analysis of the deposited data

How the results depend on the processing

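Under 16 alternatives each, the 7 tested genes of retinoic acid synthesis, breakdown and binding kept their direction and were called in all 112 fits. The log2 fold change of Aldh1a2, the smallest, was at least 0.77, with adjusted p up to 0.0210 (replicate block), that of Cyp26b1 ran from -1.98 to -1.52, that of Aldh1a3 from 2.68 to 3.31, and that of Crabp1 from -6.63 to -6.09. The Rar and Rxr genes kept their direction and call in all 96 fits. Leaving out 1 library gave 1342 (without vestibule replicate 2) to 2694 genes higher in the vestibule, 925 (without vestibule replicate 2) to 1863 higher in the cochlea, 0 to 1 receptors or coregulators higher in the vestibule, and 3 to 7 supply genes higher in the vestibule and 0 to 2 in the cochlea. Without vestibule replicate 1 the first was 1522, and without cochlea replicate 2 the second was 1035. A leave-one-out fit leaves 2 libraries in that tissue. Deviations from the tissue mean had correlations of -0.18, -0.26 and -0.48 between same-numbered libraries, and of -0.27 to 0.41 between the others. Deviations from a mean of 3 libraries cannot tell whether same-numbered libraries came from the same mice. A fit with the replicate as a block called 2618 genes against 4036, with 1009 higher in the cochlea. It called 4 supply genes higher in the vestibule and 0 in the cochlea. Under DESeq2, the exact test, no filter on low counts, and an FDR of 0.1 plus a 1.3-fold minimum, 1 coregulator (Ncoa3) was called higher in the vestibule, and the receptors and coregulators higher in the cochlea were 3 (with Ncoa1) in place of 2. Without a filter, 1 target gene (Pck1) was higher in the cochlea. With exon lengths from the annotation, the family shares were 11.9% (cochlea) and 44.3% (vestibule) for Aldh1a1, 66.0% and 22.0% for Aldh1a2, and 33.7% for Aldh1a3 in the vestibule. Without length they were 51.6% for Aldh1a1 in the vestibule, 48.2% and 11.8% for Aldh1a2, 32.7% and 36.7% for Aldh1a3, 54.9% and 9.44% for Crabp1, and 45.1% and 90.6% for Crabp2. The leading member of each family in each tissue was unchanged under these lengths. The depth limits Cyp26a1 (30 and 23 counts in the tissues) and Cyp26c1 (16 and 6).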

Other observations

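The summed RPKM of Aldh1a1, Aldh1a2 and Aldh1a3 divided by the RPKM of Cyp26b1 gives 1 value per library for synthesis against breakdown, an index chosen after the values were seen. It was 1.52, 1.25 and 0.759 in the cochlea against 35.8, 30.9 and 21.7 in the vestibule. The 3 vestibular libraries differed little in the summed Aldh1a level (393 to 399 RPKM) and more in Cyp26b1 (14.0 RPKM ± 3.70, SD, n = 3). The summed Crabp level was 3.77, 6.24 and 4.59 times the summed Aldh1a level in the cochlea against 0.0321, 0.0404 and 0.0283 times in the vestibule. With exon lengths from the annotation, an alternative chosen after seeing the data, the index was 1.48, 1.21 and 0.677 in the cochlea against 24.0, 20.7 and 15.2 in the vestibule, where the summed Aldh1a level was 238 to 249 CPM per kilobase. The Crabp ratio was then 4.26, 7.08 and 5.69 against 0.0527, 0.0664 and 0.0444. These are ratios of mRNA levels and were not tested.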
